A study of Mus musculus with 48 samples.

Results

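The AP-1 and other immediate-early genes described here are *Fos*, *Fosb*, *Jun*, *Junb*, *Jund*, *Egr1*, *Ier2*, *Ier3*, *Atf3* and *Dusp1*. They were taken by name, as all transcripts that GENCODE M21 assigns to these symbols, and make up 10 of the 21408 gene symbols in the tables. GENCODE M21 lists 28 transcripts for them, of which 18 are in the tables. The 48 cells were single cells picked by hand after sorting from the aorta-gonads-mesonephros region of wild-type C57 mouse embryos at E10, with 24 cells titled AEC and 24 titled HEC. The titles do not spell out these names, which commonly stand for arterial and hemogenic endothelial cells, and the HEC cells are tagged as hematopoietic stem cells in the cell type field. Both groups lacked any treatment or allele, both were held on ice until lysis, and cells with a deformed shape were thrown away. Full-length cDNA of polyadenylated RNA was sequenced on a Nanopore PromethION. The sorting markers and the number of embryos are not given, so each group counts as 1 sample: differences are given as values, SDs are the spread between cells, and no test was made.

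Fos and Jun proteins are leucine-zipper factors that pair to form AP-1, which binds DNA at promoters and enhancers. Their genes need no new protein to be switched on, and growth factors, shear stress, tissue dissociation and other stresses acting through MAP kinases raise them within minutes and for a short time. In differentiating mouse embryonic stem cells, AP-1 is also known to act with TEAD factors at enhancers of the hemogenic endothelium.

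Reads per cell had a median of 769715.5 in AEC (13261 to 4883854) and 724674 in HEC (96410 to 8897958). Values are reads per 10000 reads of the same cell. In 6 AEC cells (1, 7, 8, 10, 12 and 21) and in HEC 8 the total was under 100000 reads, and 1 read there was worth 0.199 to 0.754 in AEC. Summed arterial markers had a mean of 29.5 in AEC and 8.61 in HEC, and summed hemogenic markers 2.49 (0.192 to 10.95) and 14.5 (1.63 to 22.5). *Cdh5* and *Kdr* together were under 1 in AEC 11, 19 and 20 and in HEC 12 and 20. Summed mesenchymal markers had a mean of 19.9 in AEC and 5.81 in HEC, but those 3 AEC cells held 81.3% of the AEC sum, and the other 21 AEC cells averaged 4.26 beside 5.57 in the other 22 HEC cells.

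All 10 genes had a higher mean in HEC than in AEC, and 6 of them by more than 2-fold on the log2(mean + 0.1) scale: *Fos*, *Fosb*, *Jun*, *Junb*, *Ier3* and *Dusp1*. Among all 8691 genes with a mean of at least 0.1, 6.34% were past 2-fold higher in HEC and 9.4% past 2-fold lower, and 52.4% were higher at all. The median log2 ratio of the 10 genes was 1.20, beside 0.05 over the 3297 genes with a mean of at least 0.5 and a value above 0 in 12 cells. *Fosb*, *Junb* and *Atf3* were under that mean filter; of the 7 genes that passed, all were higher and 4 past 2-fold, beside 53.1% higher, 5.43% past 2-fold higher and 9.74% past 2-fold lower of all genes that passed. Median-of-ratios scaling moved the median of all genes by -0.29, and the 10 genes then had a median of 0.88. Under that scaling itself *Egr1* was at -0.22 and *Jund* at -0.18. All 10 were higher relative to the shift, but taking it off largely undoes the rescaling, so this is not a separate check. Before the shift is taken off, 4 were past 2-fold under that scaling, and *Fos* (0.86) and *Dusp1* (0.90) were not. Without the 5 cells low in *Cdh5* and *Kdr*, 6 were past 2-fold. Every one of the 10 was above 0 in all 24 HEC cells, whereas *Jun* alone was above 0 in all 24 AEC cells. Depth limits this count. For *Jund*, *Ier2* and *Egr1* the only AEC cells at 0 were among AEC 1, 7 and 12, each under 100000 reads. The difference in means was larger than the SD of both groups for *Jun* and *Fosb* and within an SD for the other 8.

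**Figure D1:**
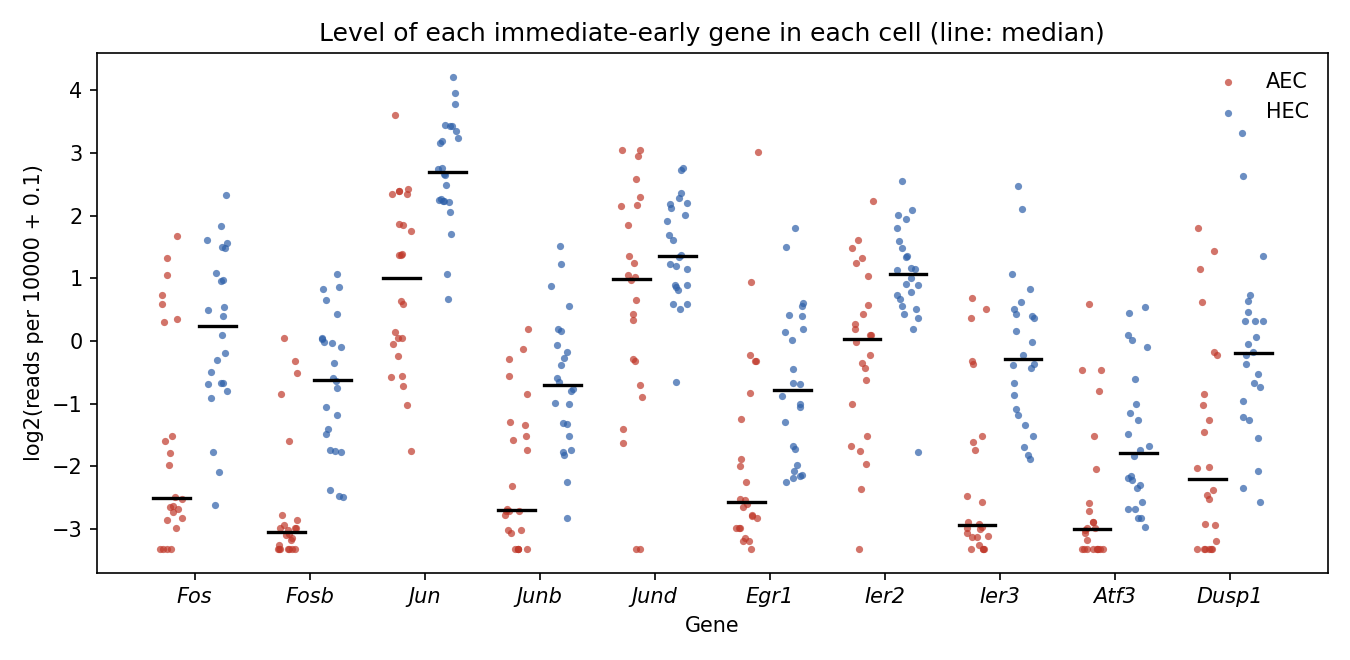
Level of each of the 10 immediate-early genes in every cell, in reads per 10000 reads, for 24 AEC and 24 HEC cells. *Jun* ran from 0.196 to 12.03 in AEC and from 1.49 to 18.5 in HEC, and the ranges of the groups overlapped for every gene.

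Of the Fos family, *Fos* (chr12:85473890-85477273, plus strand, mm10) encodes the founding partner of Jun. Its level in AEC had a lowest value of 0, a median of 0.0757 and a highest value of 3.10, in AEC 9. In HEC the lowest value was 0.0621, the median 1.09 and the highest 4.91, in HEC 23. The groups overlapped, yet 23 HEC cells lay above the AEC median and 11 AEC cells lay below every HEC cell. The means were 0.586 ± 0.894 and 1.46 ± 1.25 (SD, n = 24 cells each), a log2 ratio of 1.19. A level of at least 1 was reached by 29.2% of AEC cells (95% Clopper-Pearson interval 12.6 to 51.1%) and 50% of HEC cells (29.1 to 70.9%); these intervals cover counting error only.

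*Fosb* (chr7:19302696-19310051, minus strand) encodes a second Fos protein and, through splicing, a shortened form, ΔFosB, that lacks the C-terminal activation region. Its AEC values ran from 0 through a median of 0.0210 to 0.929, in AEC 10. Its HEC values ran from 0.0770 through 0.552 to 1.99, in HEC 19. All 24 HEC cells were above the AEC median, and 19 AEC cells were below every HEC cell. The means were 0.133 ± 0.260 and 0.705 ± 0.565, a log2 ratio of 1.79. The 6 shallow AEC cells carried 84.1% of the summed AEC level on 8 reads. The other 18 AEC cells averaged 0.0282 ± 0.0522 with a highest value of 0.230, and 18 HEC cells exceeded that value. Pooled over cells, AEC held 51 *Fosb* reads and HEC 3433, or 0.0209 (95% Poisson interval 0.0155 to 0.0275) and 1.00 (0.971 to 1.04) per 10000 reads, with PCR copies not removed.

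Of the Jun family, *Jun* (chr4:95049034-95052222, minus strand) encodes the main activating partner of Fos. Its AEC values ran from 0.196 in AEC 22 through a median of 1.97 to 12.03 in AEC 2. Its HEC values ran from 1.49 in HEC 20 through 6.402 to 18.5 in HEC 3. The ranges overlapped, with 3 HEC cells above every AEC cell and 12 AEC cells below every HEC cell. The means were 2.71 ± 2.66 and 7.59 ± 4.25, a log2 ratio of 1.45. A level of at least 1 was reached by 62.5% of AEC cells (40.6 to 81.2%) and 100% of HEC cells (85.8 to 100%). With every cell thinned to 10000 reads, these counts were 17 and 23 cells.

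*Junb* (chr8:84974484-84978718, minus strand), a Jun protein that can also restrain Jun, had a median of 0.0545 in AEC (0 to 1.04) and 0.512 in HEC (0.0414 to 2.76). The means were 0.222 ± 0.295 and 0.736 ± 0.686, a log2 ratio of 1.38, with 4 HEC cells above every AEC cell. *Junb* overlaps *Prdx2* on the opposite strand, and no strand setting is given, so reads of the overlap cannot be assigned with certainty. *Jund* (chr8:70698949-70700616, plus strand), the Jun gene known for steady expression in resting cells, had the smallest log2 ratio of the 10. Its median was 1.89 in AEC (0 to 8.18) and 2.46 in HEC (0.533 to 6.67), and no HEC cell exceeded the highest AEC cell. This log2 ratio was 0.18, and median-of-ratios scaling turned it to -0.18 before the shift of all genes is taken off.

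*Egr1* (chr18:34859823-34864984, plus strand) encodes a zinc-finger factor switched on through serum response factor. Its median was 0.0678 in AEC and 0.481 in HEC, and all 24 HEC cells lay above the AEC median. The AEC range of 0 to 7.98 was set by AEC 21, a shallow cell in which 40 reads made 58.4% of the summed AEC level. The means were 0.570 ± 1.63 and 0.780 ± 0.830, a log2 ratio of 0.39. Without AEC 21 the ratio was 1.34, and without the cells under 100000 reads it was 2.09. Under median-of-ratios scaling it was -0.22 before the shift of all genes is taken off. HEC 1, the deepest cell, held 3000 of the 4477 HEC reads.

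*Ier2* (chr8:84661331-84662852, minus strand) encodes a short-lived nuclear regulator. Its median was 0.925 in AEC (0 to 4.596) and 2.01 in HEC (0.192 to 5.80), and 10 AEC and 23 HEC cells reached a level of 1. The log2 ratio was 0.88. *Ier3* (chr17:35821684-35822923, plus strand), a stress-inducible gene linked to cell survival, had a median of 0.0297 in AEC (0 to 1.51) and 0.716 in HEC (0.171 to 5.43). All 24 HEC cells were above the AEC median, and the log2 ratio was 1.74.

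*Atf3* (chr1:191170296-191218039, minus strand) encodes a stress-induced leucine-zipper factor that can pair with Jun. Its median was 0.0245 in AEC (0 to 1.40) and 0.188 in HEC (0.0277 to 1.35), with a log2 ratio of 0.83. The highest AEC value was 2 reads in the shallow cell AEC 1. In the 18 deeper AEC cells the highest was 0.628, and 5 HEC cells exceeded it. *Dusp1* (chr17:26505590-26562128, minus strand) encodes a phosphatase that switches MAP kinases off and so limits the response. Its median was 0.119 in AEC (0 to 3.37) and 0.772 in HEC (0.0672 to 9.87). The means were 0.545 ± 0.916 and 1.39 ± 2.179, a log2 ratio of 1.21. HEC 17 alone made 29.5% of the HEC sum, and the ratio was 0.80 without it and 1.51 without AEC 23.

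Summed over the 10 genes, the level ran in AEC from 1.17 in AEC 22 through a median of 8.87 to 18.95 in AEC 21. In HEC it ran from 6.34 in HEC 20 through 17.1 to 37.4 in HEC 5. The groups overlapped, with 11 HEC cells above every AEC cell and 7 AEC cells below every HEC cell. The means were 9.05 ± 4.47 and 19.5 ± 8.40, a log2 ratio of 1.096. *Jun*, *Jund* and *Ier2* together made a median of 73.9% of the sum in AEC cells and 67.9% in HEC cells. The sum thus mostly reflects these genes, and the low members enter it little.

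Other immediate-early genes were found on both sides. Of 27 other immediate-early genes with a usable level, 13 were higher in HEC, 4 of them past 2-fold, and 3 were past 2-fold lower. Their median log2 ratio was -0.15. All 37 genes found of that list summed higher in HEC (18.9 ± 6.4004 and 23.3 ± 8.85). *Klf6* made 1.69 of that sum in AEC and 5.83 in HEC. Over all genes with a mean of at least 0.1, 52.4% were higher, 6.34% past 2-fold higher and 9.4% past 2-fold lower. The share of the 27 that was higher lay near that background. Past 2-fold higher were *Klf6*, a zinc-finger factor, at 1.73, *Zfp36* at 1.501 and *Zfp36l2* at 1.47, which encode proteins that speed mRNA decay, and the nuclear receptor *Nr4a1* at 1.25. Past 2-fold lower were the growth factor *Hbegf* at -1.59, *Phlda1* at -1.33 and *Ier5l* at -1.27. *Hbegf* was at -0.14 without AEC 20, which held 78.3% of its AEC sum, and *Ier5l* at 0.16 without AEC 12, which held 83.2%. *Phlda1* was at -0.93 without AEC 20, so none of the 3 stayed past 2-fold lower without its highest cell. *Nr4a1*, *Phlda1* and *Ier5l*, and *Dnajb1* among the heat-shock genes, were chosen for mention after their values were seen. Of 9 other AP-1 or related leucine-zipper genes, 5 were higher, and the median was 0.05. *Atf4*, a factor of the integrated stress response, was at 1.06 (0.94 without HEC 15), and *Crem*, a cAMP-responsive factor, at -1.01 (-0.67 without AEC 14). *Maff* was at 0.78. Of 9 other MAP kinase phosphatases and feedback inhibitors, 6 were higher, 1 past 2-fold (*Dusp2*, 1.12), and the median was 0.34. The next largest ratios in that list were lower in HEC, namely *Dusp7* at -0.82, *Spry2* at -0.80 and *Dusp6* at -0.63. They were at -0.16 without AEC 1, -0.49 without AEC 2 and -0.33 without AEC 14, in that order. Of 18 genes for MAP kinases and serum response factor partners, 13 were higher and the median was 0.30, with 1 past 2-fold each way (*Elk4*, 1.37, and *Map2k7*, -2.62). *Map2k7* was at 0.69 without AEC 10, which held 95.3% of its AEC sum. *Mapk14*, the p38 kinase, was at 0.67 and *Elk3* at -0.61.

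Most heat-shock genes had a higher mean in HEC. Of 14, 11 were higher and 5 past 2-fold, beside 52.4% and 6.34% of all genes, namely *Hspa1a* (log2 ratio 3.14), *Hspa1b* (2.40), *Hsp90aa1* (1.41), *Hspb1* (1.18, and 0.98 without HEC 19) and *Dnajb1* (1.16). *Hspa5*, *Hsph1* and *Dnajb4* were lower, at -0.41, -0.11 and -0.50. *Hsph1* was at 1.62 without AEC 17, which held 76.3% of its AEC sum. The summed level of the 14 genes was 81.5 ± 26.7 in AEC (44.4 to 161) and 158 ± 30.8 in HEC (96.6 to 218). Cells of the 2 groups may also have differed in embryo, sort gate or time on ice, which cannot be told apart from the group, and the part of these in the immediate-early levels was not tested.

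**Figure D2:**
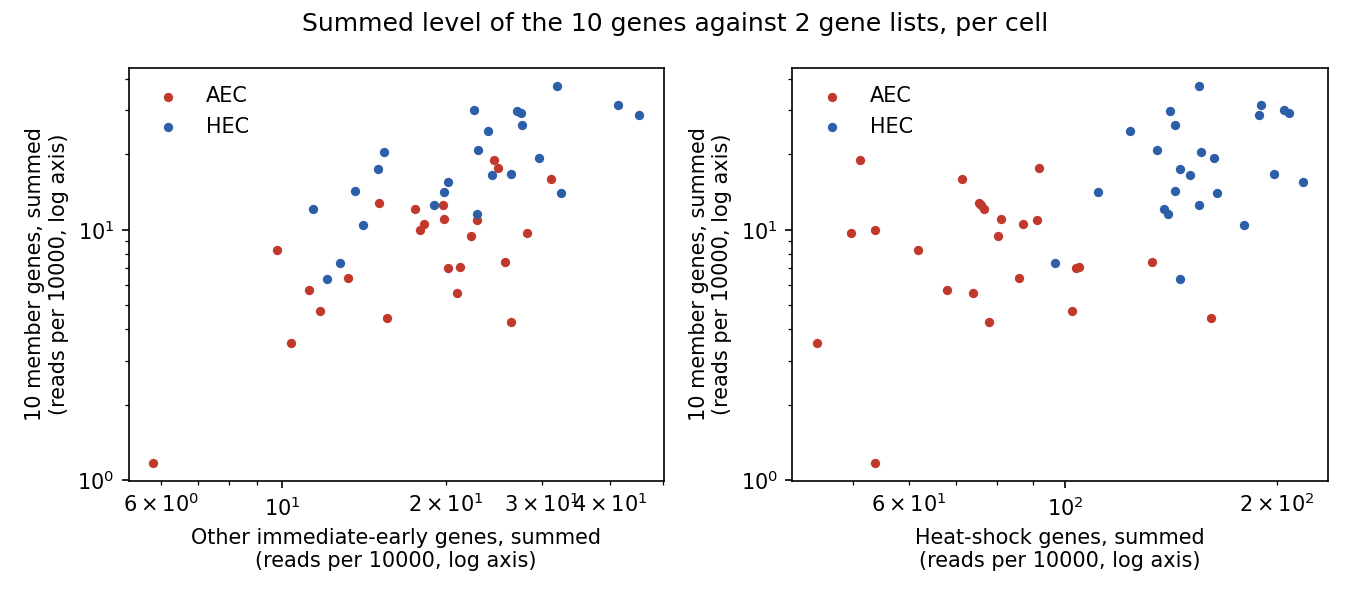
Summed level of the 10 immediate-early genes in each cell beside summed levels of other gene lists, in reads per 10000 reads, for 24 AEC and 24 HEC cells. In HEC, Spearman's rho of the sum was 0.689 with other immediate-early genes and 0.314 with heat-shock genes.

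Within HEC the summed level of the 10 genes followed that of the other immediate-early genes (Spearman's rho 0.689, Pearson's r of log2 values 0.728, n = 24 cells). Without the 2 cells farthest from the median these were 0.632 and 0.687. With the heat-shock sum rho was 0.314 in HEC and -0.0713 in AEC. With the hemogenic marker sum rho was 0.403 in HEC and -0.429 in AEC. Without the 2 farthest cells of each group these were 0.225 and -0.325. With the members standardised and averaged in place of the sum, rho was 0.458 in HEC and -0.193 in AEC. Without the 2 farthest cells those were 0.298 and -0.071. In AEC the relation with other immediate-early genes was 0.433, and 0.274 without the 2 farthest cells. All correlations are across cells that may share an embryo and are given as descriptions. In each group 15 such relations were computed for the sum, and the same 15 for the averaged level.

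Between single genes, the median correlation was higher in HEC than in AEC. Over the 45 pairs of the 10 genes, the median rho was 0.305 in HEC (-0.056 to 0.683), with 41 pairs above 0 and 28.9% at 0.4 or more. The background was all 3257 genes with a mean of at least 0.5 in HEC and above 0 in at least 12 of its cells. Over their pairs the median was 0.0078, with 51.4% above 0 and 3.71% at 0.4 or more. In AEC the median over the 45 pairs was 0.035 (-0.46 to 0.53), with 25 above 0 and 4.44% at 0.4 or more, beside 0.053, 59.2% and 5.60% over pairs of 3281 genes. The 3281 genes met the same filter in AEC. The members did not have to meet the mean of 0.5, so the background is not matched in level. *Atf3* was under that mean in HEC, and *Fosb*, *Junb*, *Ier3* and *Atf3* were under it in AEC. The difference between the groups was not tested. Without the cells under 100000 reads the medians were 0.310 over 23 HEC cells and 0.0428 over 18 AEC cells. Thinning every cell to 10000 reads left 7 genes and 21 pairs in HEC, with a median of 0.101, and 3 genes and 3 pairs in AEC, with 0.089.

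**Figure D3:**
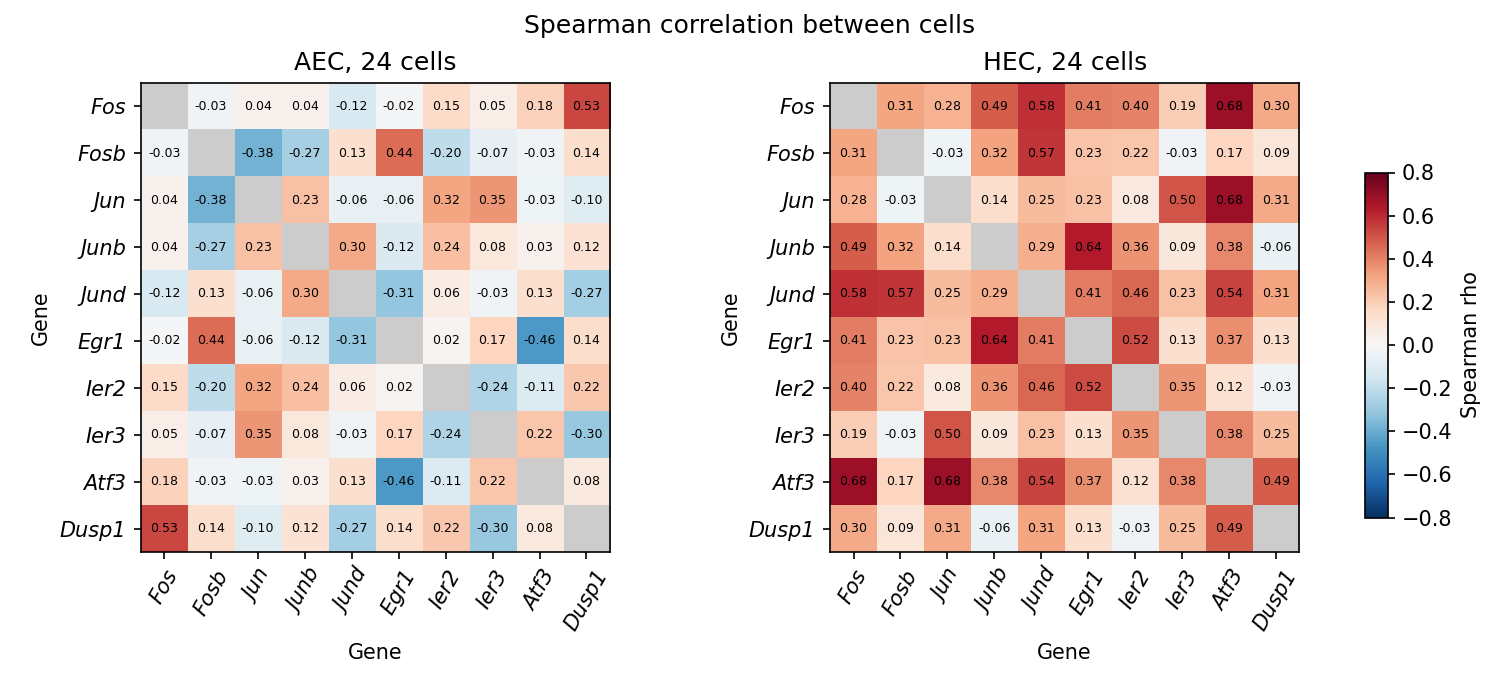
Spearman's rho between the 10 immediate-early genes across the 24 cells of each group. In HEC 41 of 45 pairs were above 0, and in AEC 25 were.

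The highest pair in HEC was *Fos* with *Atf3* (rho 0.683, r 0.649), which without the 2 farthest cells had a rho of 0.723. *Jun* with *Atf3* followed (rho 0.682, r 0.613), then *Junb* with *Egr1* (0.637 and 0.645). *Jund* had a rho of 0.583 with *Fos* and of 0.571 with *Fosb*. *Jund* had the highest median rho with the other 9 genes inside HEC, at 0.412, and *Fosb* the lowest, at 0.222. In HEC, rho with the number of reads ran from -0.0974 for *Egr1* to 0.406 for *Atf3* and was 0.393 for *Fos*. In AEC the highest pair was *Fos* with *Dusp1* (rho 0.532), which was 0.283 in the 18 deeper cells. *Fosb* with *Egr1* stood at 0.445 in AEC and 0.189 in the deeper cells, and *Egr1* with *Atf3* was lowest, at -0.459.

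Of 3056 other genes, the one most like the mean standardised log2 level of the members across HEC cells was *Klf6* (rho 0.718), followed by *Obsl1* (0.703), *Wwc2* (0.683), *Chtf8* (0.662) and *Srpk1* (0.647). In AEC *Klf6* was at 0.410, *Obsl1* at 0.369, *Wwc2* at 0.083, *Chtf8* at -0.166 and *Srpk1* at -0.166. *Klf6* is among the other immediate-early genes summed above. In AEC, of 2998 genes, the most alike were *Cops3* (0.666), *Zyx* (0.650), *Rab1b* (0.610), *Cdc42bpa* (0.607) and *Khdc4* (0.590). Their values in HEC were 0.218, 0.456, 0.057, 0.373 and 0.147, in that order. Both sets are the extremes of a long ranking over 24 cells.

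The promoters of *Fos*, *Jun* and *Atf3*, which made up the 2 highest pairs in HEC, are shown from 250 bases before to 50 after the RefSeq start (GRCm38.p6, strand of the gene). They lie at chr12:85473640-85473939, chr4:95052173-95052472 and chr1:191183284-191183583. Capitals mark cyclic AMP response and AP-1-like motifs (TGACG or its complement CGTCA, and TGACATCA) and the TATA motif TATAAA, searched on both strands.
Fos: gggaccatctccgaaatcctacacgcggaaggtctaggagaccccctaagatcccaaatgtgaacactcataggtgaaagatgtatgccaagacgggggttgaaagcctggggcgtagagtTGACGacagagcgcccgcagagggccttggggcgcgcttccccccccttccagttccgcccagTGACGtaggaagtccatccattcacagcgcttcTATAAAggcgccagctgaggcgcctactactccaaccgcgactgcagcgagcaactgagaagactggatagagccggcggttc
Jun: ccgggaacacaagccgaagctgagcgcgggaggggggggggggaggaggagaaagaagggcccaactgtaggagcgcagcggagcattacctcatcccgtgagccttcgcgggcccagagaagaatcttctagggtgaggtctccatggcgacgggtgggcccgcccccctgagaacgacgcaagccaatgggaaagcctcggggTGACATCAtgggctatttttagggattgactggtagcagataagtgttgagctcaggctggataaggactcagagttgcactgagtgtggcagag
Atf3: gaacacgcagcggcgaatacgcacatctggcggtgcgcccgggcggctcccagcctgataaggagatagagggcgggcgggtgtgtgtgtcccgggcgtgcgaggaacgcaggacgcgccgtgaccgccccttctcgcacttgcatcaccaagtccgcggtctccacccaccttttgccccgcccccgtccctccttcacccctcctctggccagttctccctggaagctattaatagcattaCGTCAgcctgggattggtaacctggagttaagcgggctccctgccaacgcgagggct
In *Fos*, TGACG began 129 and 66 bases before the start and TATAAA 33 before. In *Jun*, TGACATCA began 45 bases before, and in *Atf3* CGTCA began 7 before. TGACG was in 5 of the 8 member promoters searched and in 20.8% of all 32851 promoters of this length, TATAAA in *Fos* and *Junb* and in 13.6%, and TGACATCA in *Jun* and in 3.62%. The AP-1 motif TGANTCA was in none of the 8 and in 7.81% of all, and the CArG box, where serum response factor binds, in none and in 1.63%. Bases outside this window were not searched, so sites farther from the start would be missed.

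Isoform values rest on the assignment of long reads to annotated transcripts. *Fosb* has 2 segments that its annotated transcripts keep or leave out, shown here from GENCODE M21 with 12 flanking bases because the full-length and ΔFosB forms turn on the latter. In exon 3 (chr7:19306559-19306666, 108 bases, a multiple of 3) capitals mark the exon. In the exon 4 segment (chr7:19305007-19305146, 140 bases, not a multiple of 3) capitals mark the GT and AG at its ends.
Fosb exon 3: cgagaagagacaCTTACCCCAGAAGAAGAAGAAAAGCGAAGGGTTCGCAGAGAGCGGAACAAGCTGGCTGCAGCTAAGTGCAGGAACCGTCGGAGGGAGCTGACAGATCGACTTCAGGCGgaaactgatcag
Fosb exon 4 segment: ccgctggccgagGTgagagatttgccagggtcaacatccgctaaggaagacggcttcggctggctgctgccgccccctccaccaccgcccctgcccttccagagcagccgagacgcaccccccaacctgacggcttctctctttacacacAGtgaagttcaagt
Fosb-201 keeps both and has 338 codons, and Fosb-207 lacks both. Fosb-206, which keeps exon 3 and lacks the exon 4 segment (237 codons), was not among the transcripts in the tables, so reads of that structure had no exact match and may be counted under another.

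Of the summed HEC level of *Fosb*, 63.4% was Fosb-207, 29.5% Fosb-201 and 7.12% the single-exon retained-intron transcript Fosb-204, which was chosen for mention after its values were seen. In AEC Fosb-207 made 90.6% of the summed level and 62.7% of the 51 pooled reads (48.1 to 75.9%), beside 59.8% of the 3433 HEC reads (58.1 to 61.4%). No AEC cell had 20 *Fosb* reads, so shares per cell exist for HEC alone. Among 15 HEC cells with at least 20 *Fosb* reads, 8 had at least 90% Fosb-207 and 4 had at least 90% Fosb-201. HEC 19 had 542 of 554 reads on Fosb-207, and HEC 18 had 174 of 174 on Fosb-201. HEC 1, with 1523 reads, held 39.7% Fosb-201, 42.7% Fosb-207 and 17.6% Fosb-204. Such dominance by 1 transcript was common: it held in 80% of these *Fosb* cells and in 69.4% of 95081 gene and cell combinations in HEC.

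**Figure D4:**
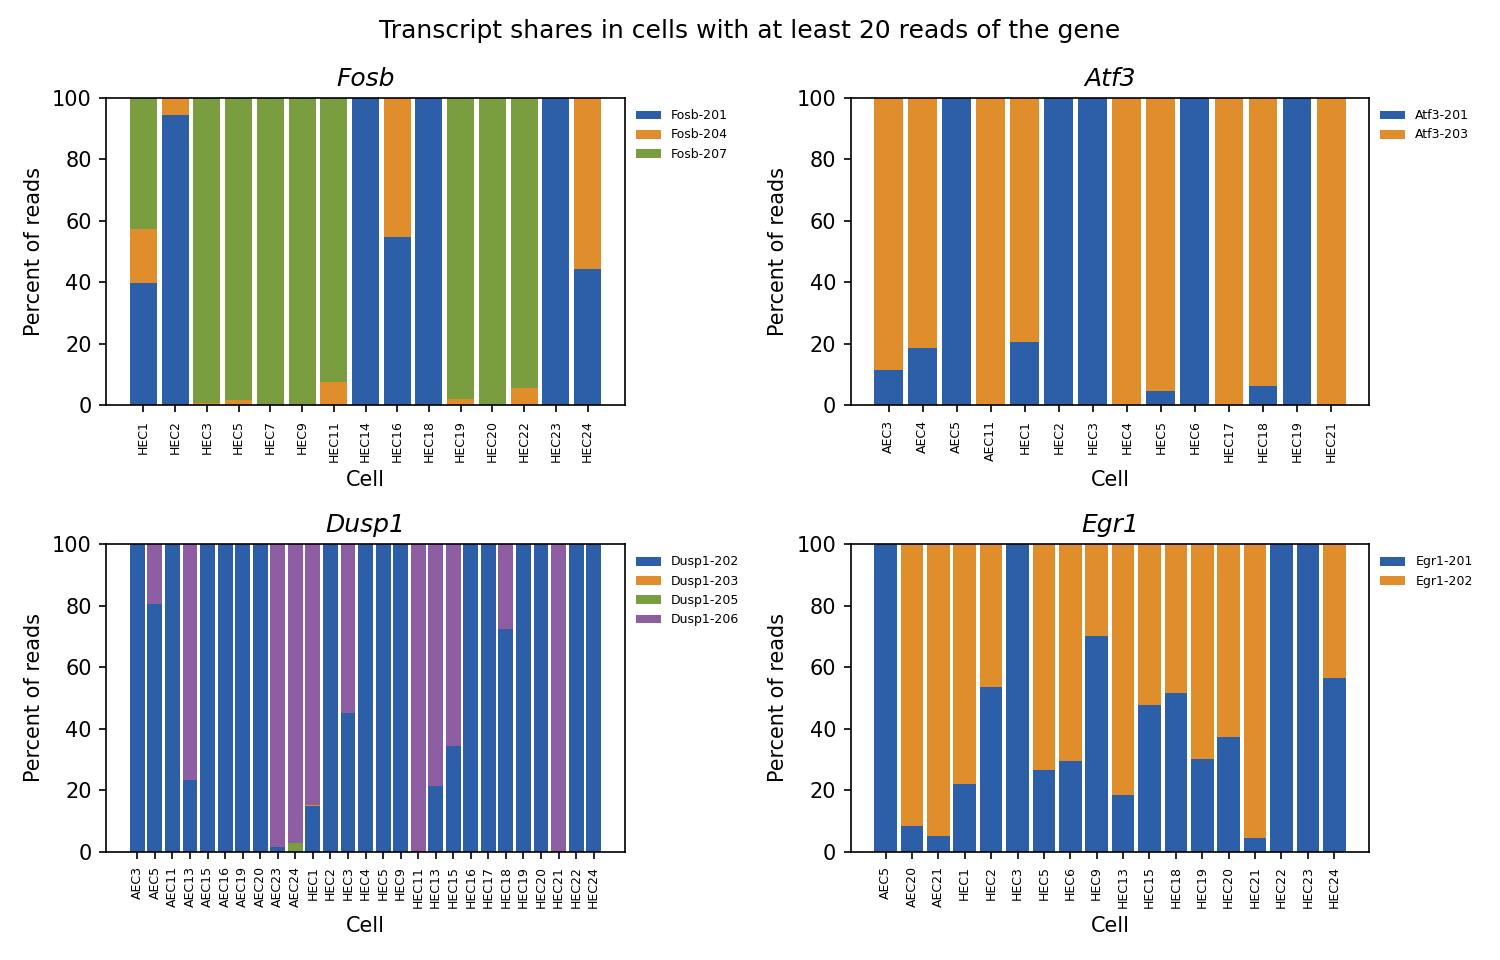
Share of each isoform in cells with at least 20 reads of the gene, in percent. *Fosb* in HEC was split between cells with at least 90% Fosb-207 (8 of 15) and at least 90% Fosb-201 (4 of 15).

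*Atf3* reads were assigned to 2 annotated transcripts with different starts. Where single reads began was not examined, so reads that miss the first exon may be assigned to either. Atf3-203, whose first exon (chr1:191217870-191218039) lies 34699 bases upstream of the other start, made 87.3% of the summed level in AEC and 71.5% in HEC, and both encode 181 codons. The shallow cell AEC 1 held 42.2% of the AEC sum of Atf3-203, and without it the AEC share was 79.9%. HEC 19 held 55.0% of the HEC sum of the other transcript, and without it the HEC share of Atf3-203 was 84.8%. Among 10 HEC cells with enough reads, 5 had at least 90% Atf3-203 and 4 at least 90% of the transcript from the downstream start. Dominance by 1 transcript held in 90% of these cells, beside 69.4% of gene and cell combinations in HEC. The *Atf3* promoter printed above is that of the downstream start.

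For *Dusp1*, Dusp1-202 (367 codons) made 79.2% of the summed level in HEC, and Dusp1-206 (174 codons) made 64.9% in AEC. Single cells did not follow that AEC sum: of 10 AEC cells with at least 20 reads, 6 had at least 90% Dusp1-202 and 2 at least 90% Dusp1-206, and of 17 HEC cells the counts were 10 and 2. Dominance by 1 transcript thus held in 80% of these AEC and 70.6% of these HEC cells. Over all genes with at least 2 transcripts it was as common, in 77.3% and 69.4% of gene and cell combinations. AEC 23 held 39.2% of the AEC sum of Dusp1-206, and without it the share was 53.2%. By pooled reads, Dusp1-206 made 32.4% in AEC and 26.4% in HEC. *Dusp1* overlaps *Ergic1* on the opposite strand. For *Egr1*, Egr1-202 made 74.2% in AEC and 58.3% in HEC, and the AEC share was 45.1% without AEC 21. The order was the other way by pooled reads, at 56.7% and 71.5%, but HEC 1 alone held 2337 of the 3201 Egr1-202 reads in HEC. Dominance by 1 transcript was less common for *Egr1* in HEC. It held in 4 of 15 HEC cells with at least 20 reads (26.7%), beside 69.4% of gene and cell combinations. In AEC only 3 cells had that many *Egr1* reads, and it held in all 3.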

How the data were processed

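Single cells were measured by Nanopore sequencing of full-length cDNA. The deposited signal is a value per transcript that the authors scaled to 10000 per cell, and minimap2 2.18-r1015, Salmon 1.1.0 and mm10 are named in the submitters' processing notes. Of the annotation release and filters, nothing is stated in these sources. Each value was a whole multiple of the cell's smallest value (largest deviation 5.91e-09 of a read), which gave reads per cell. Of 52927 transcripts, 52799 matched GENCODE M21 and were summed by gene symbol. Log2 ratios used group means + 0.1. Groups followed titles. Isoforms of at least 10% were named, as were the 4 genes with the largest ratios of each pathway list and the 5 genes most like the members. A gene that this rule names is not reported here. Members and lists were chosen with earlier results of these data known. Scripts were tested on simulated data. Reads carry no molecular identifiers, so intervals cover counting error only. Values were computed in Python 3.11.15 (scipy 1.17.1, pandas 2.3.3, numpy 2.4.6), with plots in matplotlib 3.10.9.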

Additional observations from a re-analysis of the deposited data

How the results depend on the processing

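No paired analysis was possible because no comparison has a test, and nothing in the labels ties a title number to an embryo or batch. No member past 2-fold changed sign in the settings tried. Under median-of-ratios scaling *Egr1* went to -0.22, *Jund* to -0.18 and the median of the other AP-1 genes to -0.34. That median was also -0.08 without cells under 100000 reads and -0.13 without the cells of fewest genes. The median of the other immediate-early genes was 0.02 without the cells of fewest genes, 0.02 without cells low in *Cdh5* and *Kdr*, and 0.08 with no filter, and that of the MAP kinase phosphatases -0.08 with no filter. The *Fosb* log2 ratio was 0.59 with a pseudocount of 1, 3.56 after thinning and 3.19 from pooled reads. The *Egr1* ratio was 2.09 without cells under 100000 reads, 2.09 without the 6 cells of fewest genes in each group and 2.71 from pooled reads. In AEC the first 2 of these settings left out the same 6 cells. The Fosb-207 share in AEC was 40.7% without those 6 cells, 62.7% from pooled reads and 86.7 to 97.6% leaving out 1 cell at a time. The median rho in HEC was 0.101 after thinning. The number of members past 2-fold was 1 with a pseudocount of 1, 4 with median-of-ratios scaling, 8 without cells under 100000 reads, 8 from means of log2 values and 6 or 7 in the other settings. The share of all genes past 2-fold higher was 0.637% with a pseudocount of 1, 2.41% with median-of-ratios scaling, 9.82% after thinning, 20.1% from means of log2 values and 2.98% with no filter. The causes were not tested. Depth limits the AEC values, since 1 read in the 6 shallow cells is above the AEC median of 7 of the 10 genes.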
